A study of Gallus gallus with 9 samples.

Results

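Among the regions listed for the sperm comparison of embryonic heat conditioning (EHC), those of intermediate methylation, here called mid-level regions, were described. A region was chosen by its mean methylation over the 9 birds, which had to be at least 40% and at most 60%. This rule took 2889 of the 6428 listed regions, or 44.9%. The paper reports far fewer differentially methylated regions than this list holds, so most listed regions are not among those it called. All birds were Cobb strain broiler males (Gallus gallus) of the first generation (F0). The 4 F0EHC males hatched from eggs warmed to 39.5 °C with humidity raised to 65% during 12 hours daily over embryonic days 7 to 16, and the 5 F0C males from eggs kept at 37.8 °C with a humidity of 56%. Heat and humidity were raised together, so their parts cannot be told apart. Sperm was collected from each male separately and each library is 1 bird. The values came from reduced representation bisulfite sequencing (RRBS), and each is the authors' mean percent of methylation over a region in 1 bird, with the read depth behind it unknown.

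DNA methylation in birds, as in mammals, sits mainly on cytosines that precede a guanine (CpG). Bisulfite converts unmethylated cytosines, so the reads show which share of copies of each CpG was methylated, and RRBS enriches CpG-rich DNA through a restriction digest. In sperm, CpG-rich promoters are usually unmethylated and much of the remaining genome is highly methylated. An intermediate value can come from a mixture of cells, from CpGs of unequal level averaged in a region, or from a level that differs between birds. A region mean does not separate the first of these from the second, whereas the third can be read from the 9 birds.

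The mid-level regions formed the main peak of the listed levels. Their median level was 51.7%, and the bin from 50% to 55% alone held 1104 regions, the most of any bin but the lowest, below 5%, with 1190 regions. The 5-point bins from 25% to 40% held 123 to 179 regions each. Only 589 listed regions lay above 60%, and none reached 85%. The limits at 40% and 60% therefore fell on the flanks of a single peak. Just inside the lower limit stood chr19:176254-176472 at 40.02% and chr2:381301-381354 at 40.03%, and just outside it chr3:96862083-96862165 at 39.99% and chr18:9287289-9287337 at 39.93%. Just inside the upper limit stood chr20:10688128-10688204 at 59.998% and a contig region at 59.98%, and just outside it chr22:1322958-1323067 at 60.004% and chr18:6010347-6010390 at 60.005%. These values chose the members and describe only the rule. Coordinates are in galGal5.

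**Figure D1:**
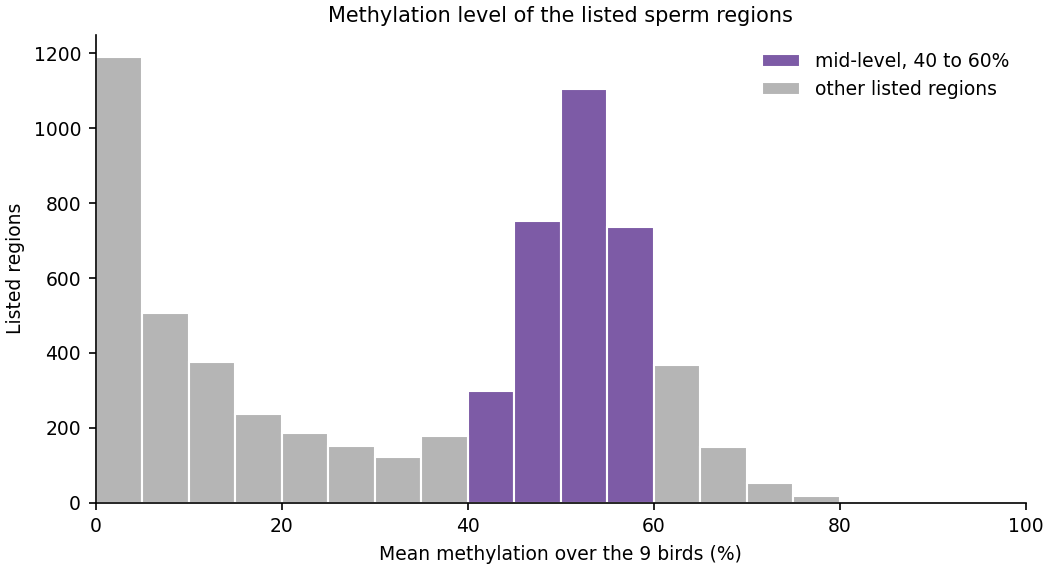
Number of listed regions (y axis) by mean methylation over the 9 birds in percent (x axis, 5-point bins), with the mid-level regions in purple and all other listed regions in grey. The highest purple bar, from 50% to 55%, holds 1104 regions, and the grey bar below 5% holds 1190 regions.

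In most mid-level regions every bird lay at an intermediate level, taken here as 30% to 70%. The range over the 9 birds, the highest minus the lowest, had a median of 18.6 percentage points (quartiles 14.9 and 23.5). In 2531 regions (87.6%) every measured bird lay between 30% and 70%, and in 555 (19.2%) every bird lay between 40% and 60%. A bird below 20% occurred in 41 regions and a bird above 80% in only 2. The median range was 24.3 points in regions with a mean of 20% to 40% and 16.4 points in regions above 60%. Over all listed regions it was 16.4 points and over the other listed regions 13.3 points, both below that of the mid-level regions. A range of at most 20 points occurred in 58.7% of mid-level regions and in 66.8% of all listed regions. These are descriptions without a test, because regions are not independent replicates and a range depends on the level itself. The spread within a group was similar in both, with a median SD of 5.04 points in F0EHC and 5.31 points in F0C.

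The most uniform region, chr25:256484-256707, spanned 5.47 points. It stood at 58.1%, 57.5%, 58.0% and 59.5% in the F0EHC birds and at 54.3%, 54.2%, 59.6%, 56.9% and 54.3% in the F0C birds. The next, chr28:3406034-3406071, spanned 5.79 points, from 49.3% to 54.1% in F0EHC and from 51.1% to 55.1% in F0C. All 9 birds thus held nearly the same level in these regions, and the groups overlapped.

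At the other end, 270 mid-level regions spanned over 30 points and 29 spanned over 50 points. In 31 regions at least 1 bird was below 20% while another was above 60%. The widest range, 77.5 points, was at chr1:50943478-50943504. F0EHC birds stood at 41.3%, 79.9%, 71.4% and 2.5%, and F0C birds at 73.5%, 37.5%, 71.8%, 76.8% and 28.3%. The neighbouring region chr1:50943387-50943412 had 39.3%, 56.2%, 67.2% and 1.8% in the F0EHC birds and 59.995%, 30.9%, 62.8%, 56.2% and 22.4% in the F0C birds. The same birds were low, middle and high in both regions, across the groups. F0EHC replicate 4 was almost unmethylated in both.

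A touching pair on chromosome 2 showed the same kind of steps. At chr2:62130574-62130619 the F0EHC birds had 28.8%, 65.8%, 68.7% and 29.7% and the F0C birds 65.3%, 40.3%, 76.6%, 6.0% and 33.0%. At chr2:62130620-62130658 the F0EHC birds had 33.5%, 74.2%, 71.3% and 30.4% and the F0C birds 75.1%, 36.2%, 74.1%, 4.7% and 33.6%. Here F0C replicate 4 was the low bird, and in each group some birds lay between 28.8% and 40.3% and others between 65.3% and 76.6%. The mid-level mean of these 4 regions was thus held by few of the birds. The group differences were small beside this spread, from -8.80 to 7.61 points, with exact permutation p-values from 0.659 to 0.833 (two-sided), and the signs of all 4 reversed when 1 bird was left out.

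Birds also differed over the mid-level regions as a whole. The mean was 52.3%, 54.8%, 51.2% and 49.4% in the F0EHC birds and 51.2%, 48.3%, 53.3%, 51.7% and 50.9% in the F0C birds. F0EHC averaged 51.96% ± 2.26 (SD over 4 birds) and F0C 51.1% ± 1.81 (SD over 5 birds), a difference of 0.892 points that is smaller than the spread within either group. Without F0EHC replicate 2 the difference was -0.0662 points. F0EHC replicate 2 was the highest bird in 712 mid-level regions (24.6%), and F0C replicate 2 was the lowest in 573 (19.8%). F0EHC replicate 4 was the lowest in 508 (17.6%). The birds also stood apart in the listed regions above 60%, with a mean of 67.2% in F0EHC replicate 2 and of 61.8% in F0C replicate 2. Once each bird was centred on its median over all listed regions, the median range of the mid-level regions was 17.8 points. The part of these bird-wide offsets in the results below was not tested beyond the centred values given there.

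**Figure D2:**
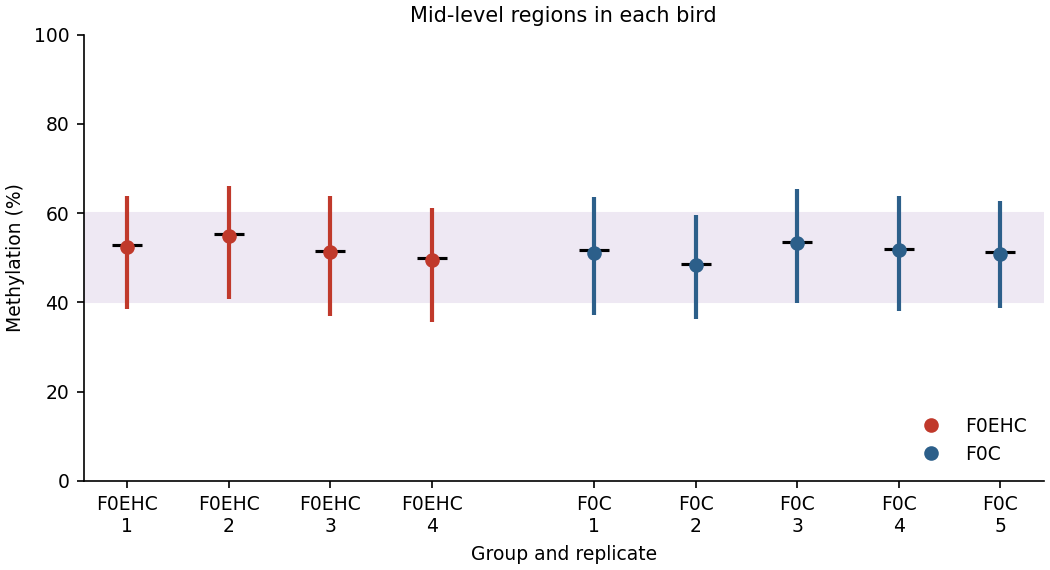
Methylation in percent (y axis) over the mid-level regions in each bird (x axis, group and replicate), with F0EHC in red on the left and F0C in blue on the right. Dots are means, black dashes medians, vertical lines run from the 5th to the 95th percentile of regions, and the band marks 40% to 60%. All means lie between 48.3% and 54.8%.

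Methylation was higher in F0EHC in 1629 mid-level regions and lower in 1260. The share higher, 56.4%, was near the 56.0% of all listed regions. The median absolute difference between group means was 5.38 points, against 4.55 points over all listed regions. A difference of at least 10 points occurred in 210 mid-level regions (7.27%), of which 121 were higher and 89 lower in F0EHC, and in 6.81% of all listed regions. A difference of at least 20 points occurred in 7 of the 2889 mid-level regions, of which 3 were higher and 4 lower. Over all 6428 listed regions, 9 were higher and 7 lower by at least 20 points. Only 17 fell under 2 points. The regions had been listed by the authors for this contrast, so small differences are scarce by construction.

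In 127 mid-level regions the groups did not overlap. All F0EHC birds lay above all F0C birds in 75 of these and below them in 52. The 127 are 4.40% of the mid-level regions, while 7.79% of all listed regions had no overlap. By direction, the share over all listed regions was 4.81% higher and 2.99% lower. The gap between the groups was mostly narrow, with a median of 1.05 points in the higher and 1.23 points in the lower regions. It passed 2 points in 37 regions and 5 points in 9, and these 2 counts are not given over all listed regions. After centring each bird, 180 mid-level regions (6.23%) had no overlap, against 5.68% of all listed regions. The order of the shares was thus turned. Centring takes 1 offset per bird from every region, and the bird medians ran from 40.1% to 45.5%. In regions below 5% the bird means lay only between 1.88% and 3.70%. These low regions held 230 of the 501 regions with no overlap as deposited. The offsets are large beside the levels there, and their part in the turned order was not tested.

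**Figure D3:**
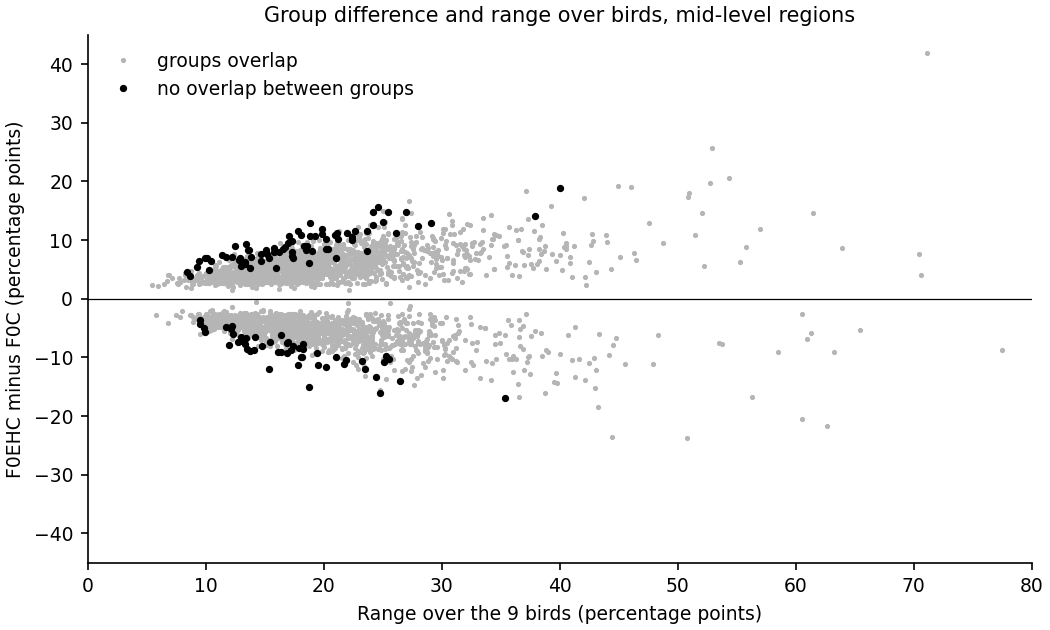
Difference between group means, F0EHC minus F0C in percentage points (y axis), against the range over the 9 birds in percentage points (x axis), 1 dot per mid-level region. Black dots mark the 127 regions with no overlap between groups, of which 75 are higher and 52 lower in F0EHC.

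A linear model (limma) was fitted over all 6428 listed regions. No mid-level region passed an adjusted p of 0.05 (limma with Benjamini-Hochberg adjustment), and none of all listed regions did (0%); the smallest adjusted p was 0.256. Without adjustment, 427 mid-level regions were under a limma p of 0.05, with 269 higher and 158 lower in F0EHC. They made up 14.8% of the mid-level regions, against 19.2% of all listed regions, but this order turned with the fit. The shares were 18.6% against 15.4% with each bird centred, and 18.9% against 15.4% without a trend over the mean level. The limit given above for centring holds for the centred shares too. Among all listed regions under an unadjusted limma p of 0.05, 67.3% were higher in F0EHC. The mid-level split of 63.0% higher was not stable. With each bird centred, 537 mid-level regions were under an unadjusted limma p of 0.05, 247 higher and 290 lower, or 46.0% higher. Without F0EHC replicate 2, 387 were under this p, of which 242 were lower and 37.5% higher. They were 13.4% of mid-level regions, against 17.5% of all listed regions. Without F0C replicate 2 the counts were 204 higher and 216 lower (14.5% against 17.6%). Without F0EHC replicate 4 they were 353 higher and 99 lower (15.6% against 19.5%). The excess of higher regions among those with a small unadjusted p thus turned with the choice of birds. The split by direction over all listed regions is not given for these refits, so this turn cannot be called particular to mid-level regions.

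The regions with the smallest unadjusted limma p are described next, first those lower in F0EHC. At chr7:36305254-36305348, under gene ID ENSGALG00000012543.5, methylation was 46.7%, 43.3%, 44.2% and 50.02% in the F0EHC birds and 61.6%, 62.0%, 61.7%, 60.2% and 60.3% in the F0C birds. Every conditioned male lay below every control, with a gap of 10.2 points, the widest in any mid-level region. The difference was -15.1 ± 2.48 points (SE; limma p = 5.0e-05, adjusted p = 0.256; exact permutation p = 0.00794, the smallest that 9 birds allow). At chr1:194448378-194448441 (ENSGALG00000046164.1) the F0EHC birds stood at 42.3%, 50.1%, 53.0% and 40.8% and the F0C birds at 60.5%, 63.4%, 60.9%, 65.6% and 63.0%. This region too had no overlap, and the controls spanned less than the conditioned males.

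At chr27:4874401-4874453 (ENSGALG00000028308.3) the F0EHC birds had 30.8%, 46.8%, 48.3% and 42.8% and the F0C birds 56.6%, 57.8%, 55.6%, 66.1% and 59.5%, a difference of -17.0 points. At chr6:22716711-22716750 (ENSGALG00000007706.5) the F0EHC birds had 40.1%, 38.2%, 39.0% and 41.9% and the F0C birds 52.1%, 53.5%, 52.8%, 48.1% and 52.5%, a difference of -12.0 points. Both groups were tight in the second of these and wider in the first, and neither region had an overlap. Over the 10 lower regions chosen by this p, 8 had no overlap, and the exact permutation p ran from 0.00794 to 0.0238. Both follow from choosing regions by a small limma p on the same birds, so they are no further evidence.

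Among the regions higher in F0EHC, chr28:3251537-3251588 (ENSGALG00000026384.3) had the smallest limma p. It stood at 52.7%, 55.4%, 63.2% and 57.9% in the F0EHC birds and at 39.3%, 39.7%, 48.7%, 42.0% and 38.6% in the F0C birds, a difference of 15.6 ± 3.28 points (SE; limma p = 0.000435, adjusted p = 0.256; exact permutation p = 0.0159). At chr4:1232438-1232494 (ENSGALG00000004367.5) the F0EHC birds had 54.9%, 59.5%, 59.3% and 60.6% and the F0C birds 41.7%, 44.3%, 45.8%, 49.6% and 47.0%. At chr18:9907568-9907649 (ENSGALG00000033265.1) the F0EHC birds had 65.5%, 71.3%, 58.8% and 68.0% and the F0C birds 47.5%, 53.2%, 47.2%, 52.4% and 55.5%. In all 3 regions the conditioned males lay above the controls without overlap, by gaps of 4.05, 5.32 and 3.35 points. Of the 10 higher regions chosen by this p, 8 had no overlap, and the exact permutation p ran from 0.00794 to 0.0317. This too follows from the choice by limma p and is no further evidence.

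**Figure D4:**
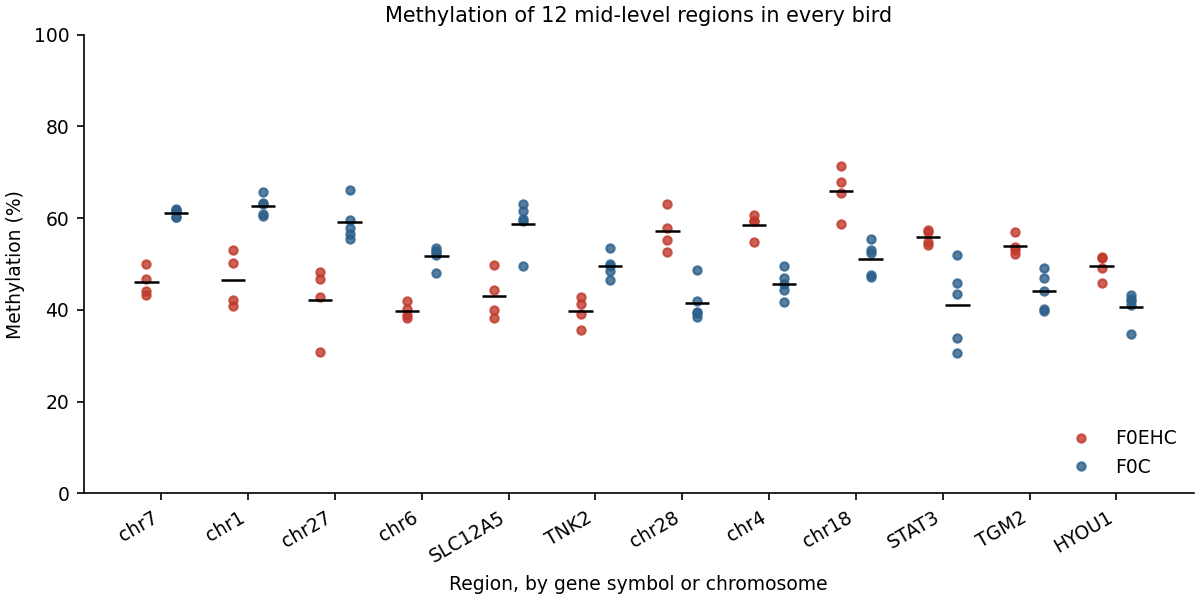
Methylation in percent (y axis) of 12 mid-level regions (x axis, by gene symbol or, where none is given, chromosome), with a dot for each F0EHC bird in red on the left and each F0C bird in blue on the right, and group means as black lines. The groups do not overlap except in the SLC12A5 region, where the highest F0EHC bird (49.8%) lies just above the lowest F0C bird (49.5%).

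The largest differences in size came with wide spread. The largest of all was at chr6:1549830-1549896, an intergenic region that the study's lists name uc_338. The F0EHC birds stood at 67.9%, 67.8%, 72.8% and 64.6%, and the F0C birds at 29.5%, 1.7%, 1.9%, 26.8% and 71.9%. The conditioned males were close together, whereas the controls fell into low, middle and high levels and the highest control lay among the conditioned males. The difference was 41.9 ± 11.4 points (SE; limma p = 0.0030, adjusted p = 0.256; exact permutation p = 0.0397). Without F0C replicate 5 it was 53.3 points with a limma p of 4.7e-06, and it was then the only mid-level region under an adjusted p of 0.05. Replicate 5 is that highest control, so a smaller p follows from leaving it out and is no further evidence.

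At chr24:2938894-2938955 (ENSGALG00000006494.5) the F0EHC birds had 60.2%, 62.5%, 47.0% and 69.7% and the F0C birds 45.3%, 34.4%, 49.8%, 24.1% and 16.9%, a difference of 25.8 points. Only F0EHC replicate 3 lay within the control range. Among the lower regions, an intron of SLC47A2 (chr19:6858797-6859320), which in human encodes an exporter of organic cations, had 20.8%, 31.4%, 12.3% and 44.2% in the F0EHC birds and 54.4%, 51.9%, 47.6%, 43.1% and 56.7% in the F0C birds, a difference of -23.6 ± 5.84 points (SE). Only F0EHC replicate 4 reached the lowest control (exact permutation p = 0.0159). A region at the promoter and start site of ENSGALG00000045102.1, on a contig of chromosome 1 at positions 2932 to 2980, had 17.7%, 27.3%, 62.4% and 21.3% in the F0EHC birds and 24.99%, 61.2%, 68.5%, 58.7% and 66.3% in the F0C birds. Here 1 bird of each group stood at the level of the other group, and the exact permutation p was 0.103.

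Gene IDs stand beside 97.5% of the mid-level regions, and 1751 different IDs occurred. The files do not pair IDs with symbols, so symbols were taken from the study's own gene lists, which name genes it called. These lists cover sperm methylation and also hypothalamic expression after injection of a mimic of the microRNA miR-200a. Through them 214 mid-level regions carried 1 of 98 symbols, 117 of them higher and 97 lower in F0EHC. These genes are therefore no neutral sample of the mid-level regions. Of the 214 regions, 108 had the symbol by their own position or gene ID and 106 through the gene ID of another region. An annotation class was known for 59 regions, and it touched introns in 23, intergenic sequence in 18, exons in 12, promoters and start sites in 5 and transcription ends in 2.

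Regions under the same gene ID often differed in direction. Of the 569 gene IDs with at least 2 mid-level regions, 351 had both directions, 137 were all higher and 81 all lower in F0EHC. Of the 57 IDs with at least 5, 53 had both. With 56.4% of all mid-level regions higher, regions grouped at random would often be mixed too. These counts are therefore no trait of the genes. AHDC1, which encodes a protein with AT-hook DNA-binding motifs, had 14 mid-level regions over 28.9 kb of chromosome 23, with 8 higher and 6 lower. Their mean levels over the 9 birds were all between 46.2% and 57.0%, while the differences ran from -11.02 to 17.3 points. Over all 19 listed regions of AHDC1, 8 were higher and 11 lower. Along its mid-level regions the sign changed 5 times. The largest, at chr23:2023684-2023732, had 65.4%, 55.5%, 58.9% and 43.4% in the F0EHC birds and 50.6%, 41.6%, 45.8%, 14.5% and 39.8% in the F0C birds, with overlap between the groups (limma p = 0.0238, adjusted p = 0.256; exact permutation p = 0.0556).

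ENSGALG00000002888.5 on chromosome 21 also had 14 mid-level regions, 7 higher and 7 lower. Its largest difference was -11.7 ± 2.76 points (SE) at chr21:3946734-3946930, where the groups did not overlap. TNK2, a non-receptor tyrosine kinase, had 11 mid-level regions over 12.0 kb, 5 higher and 6 lower. Over all 17 listed regions of TNK2, 11 were higher and 6 lower. At chr9:15005098-15005173 of TNK2 the F0EHC birds had 35.5%, 39.0%, 41.4% and 42.8% and the F0C birds 53.6%, 46.6%, 48.4%, 49.7% and 50.1%, so that all conditioned males were lower. The groups did not overlap at chr9:15006575-15006692 either, with a difference of -9.11 points, while the TNK2 region with the largest difference was higher in F0EHC by 10.97 points and had overlap. HIC1, a transcriptional repressor, had 5 mid-level regions within 8.26 kb, 2 higher and 3 lower, with differences from -6.94 to 11.2 points. Over all 8 listed regions of HIC1, 2 were higher and 6 lower.

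In a few genes most or all mid-level regions had 1 direction; these genes were picked after their values were seen. SLC12A5, the potassium-chloride cotransporter of neurons, had 6 mid-level regions over 15.8 kb of chromosome 20, all lower in F0EHC by 4.21 to 15.5 points. Over all 12 listed regions of SLC12A5, 11 were lower. The largest difference was at an intronic region, chr20:10789048-10789073, with 49.8%, 40.1%, 38.2% and 44.4% in the F0EHC birds and 61.6%, 49.5%, 59.8%, 59.4% and 63.0% in the F0C birds. Only 1 bird of each group crossed into the other (difference -15.5 ± 3.54 points, SE; limma p = 0.000836, adjusted p = 0.256; exact permutation p = 0.0238). The other 5 SLC12A5 regions each had an unadjusted limma p above 0.05, from 0.0705 to 0.251.

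ENSGALG00000025907.2 on chromosome 28 had 11 mid-level regions over 14.4 kb, 10 of them higher in F0EHC, with differences up to 9.26 points and 2 under an unadjusted limma p of 0.05. NR5A1, a nuclear receptor that controls steroid synthesis, had 4 mid-level regions, all higher by 3.17 to 4.47 points, and none under an unadjusted limma p of 0.05. Over all 6 listed regions of NR5A1, 4 were higher and 2 lower. FBRSL1 had 3 mid-level regions, all higher, and over its 6 listed regions likewise 4 higher and 2 lower. The largest, in an intron at chr15:1603296-1603390, had 59.8%, 57.7%, 62.4% and 54.6% in the F0EHC birds and 32.2%, 25.2%, 54.95%, 50.8% and 37.9% in the F0C birds. Only the lowest conditioned male lay below the highest control. Regions of 1 gene were measured in the same birds, so they are not independent.

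**Figure D5:**
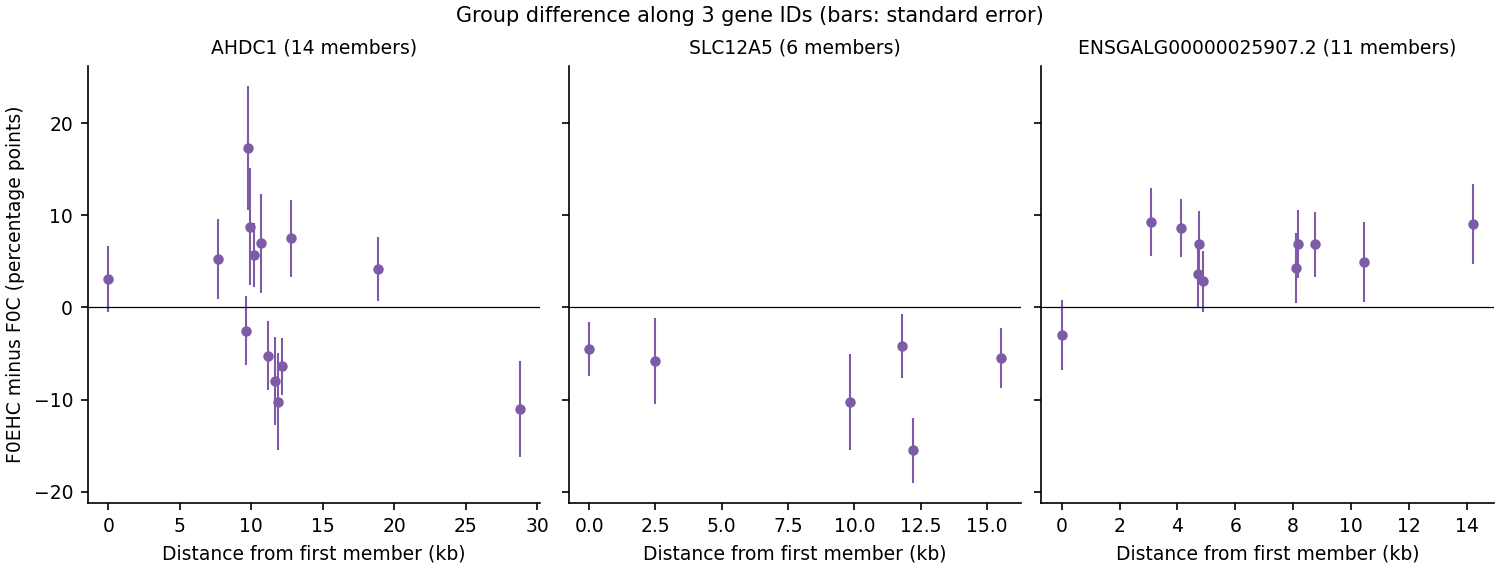
Difference between group means, F0EHC minus F0C in percentage points (y axis), of the mid-level regions of 3 gene IDs against the distance from the first region in kb (x axis), with standard errors as bars. AHDC1 has 8 regions above and 6 below 0, all 6 regions of SLC12A5 lie below 0, and 10 of 11 regions of ENSGALG00000025907.2 lie above 0.

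Across all gene IDs, nearby mid-level regions shared their direction only slightly more often than distant ones. Of the 34 touching pairs, 21 (61.8%) had the same direction, as had 56.0% of the 166 pairs 1 to 100 bp apart and 54.2% of the 277 pairs over 100 and up to 1000 bp apart. For neighbours further apart the share was 51.0%. These are counts without a test.

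Lists of genes that the heat treatment could touch were counted among the regions with a symbol. Of 29 heat shock and protein folding genes only BAG3, a co-chaperone of HSP70, was found. Its region chr6:30313187-30313338 had 57.7%, 57.7%, 60.3% and 60.9% in the F0EHC birds and 50.7%, 50.5%, 65.5%, 54.6% and 55.7% in the F0C birds, with overlap (difference 3.76 ± 3.25 points, SE; limma p = 0.270; exact permutation p = 0.294). Of 45 innate immune and inflammation genes only STAT3, which carries cytokine signals to the nucleus, was found. At chr27:5336239-5336368 of STAT3 the F0EHC birds had 57.1%, 57.5%, 54.1% and 54.8% and the F0C birds 52.0%, 33.8%, 43.6%, 30.5% and 45.8%. All conditioned males were above all controls, by a gap of 2.14 points (difference 14.7 ± 4.25 points, SE; limma p = 0.00455, adjusted p = 0.256; exact permutation p = 0.0159). Immune genes outside this list also had mid-level regions and were picked after their values were seen. In OASL, an interferon-induced gene, the F0EHC birds had 38.2%, 45.6%, 50.3% and 47.8% and the F0C birds 63.4%, 50.8%, 56.7%, 51.8% and 53.5% (chr12:3231397-3231471), lower without overlap by a gap of 0.48 points (difference -9.78 ± 3.53 points, SE; limma p = 0.0166, adjusted p = 0.256; exact permutation p = 0.0159). JAK3, a kinase of cytokine receptors, had 3 mid-level regions, 1 higher without overlap (difference 9.55 points) and 2 lower with overlap. CD40 had 1 higher and 1 lower, CSF1 had 2 higher and TAP2 had 1 lower, all with overlap. CD300L-S1 had 1, higher by 14.1 points without overlap. Over all 4 listed regions of STAT3, 3 were higher and 1 lower. The immune genes named here thus had both directions, and other immune genes with a symbol may be left out. BAG3, STAT3 and OASL are among the genes that the paper reports as changed in the hypothalamus by the miR-200a mimic. Their symbols therefore need not come from sperm methylation. Of 29 germ cell genes only SPATA20 was found, with 53.7%, 57.8%, 51.7% and 43.9% in the F0EHC birds and 43.4%, 44.4%, 45.4%, 44.1% and 45.5% in the F0C birds (limma p = 0.0429, adjusted p = 0.256; exact permutation p = 0.0397). Its F0EHC replicate 4 lay among the controls. None of 16 genes of the DNA methylation machinery and none of 26 genes of the hypothalamic stress axis was found. Since most IDs have no symbol here, a gene that was not found may still have a mid-level region. The lists are also not complete. Genes of these kinds outside them, picked after their values were seen, include HYOU1, a chaperone described below, SYCE3, GADD45B, CXXC5 and HSD11B2. SYCE3 had 1 mid-level region, higher by 17.2 points, and GADD45B had 1, higher by 5.99 points, both with overlap. Of the 2 listed regions of GADD45B, 1 was lower. CXXC5 had 5 mid-level regions, 3 higher and 2 lower, and 1 of the lower had no overlap (difference -8.72 points). HSD11B2 had 1, higher by 8.54 points with overlap. Other genes of these kinds may be left out.

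Of the 127 regions with no overlap, 20 carried a symbol, as did 214 of all 2889 mid-level regions. Symbols came from genes the study called, partly on this contrast, so these counts are no result about the genes. In an exon of TGM2, which encodes transglutaminase 2, the F0EHC birds had 53.0%, 53.7%, 52.2% and 57.1% and the F0C birds 49.2%, 40.3%, 39.8%, 47.1% and 44.2% (chr20:10570249-10570302). In an intron of HYOU1, a chaperone of the endoplasmic reticulum, the F0EHC birds had 49.2%, 51.4%, 45.8% and 51.5% and the F0C birds 42.0%, 34.8%, 42.4%, 43.3% and 41.1% (chr24:5668671-5668823). Near HS6ST2, which sulfates heparan sulfate, the F0EHC birds had 41.6%, 40.8%, 36.5% and 41.2% and the F0C birds 53.4%, 49.2%, 52.4%, 56.0% and 45.3% (chr4:3610085-3610265). These regions of TGM2 and HYOU1 were thus higher, and that of HS6ST2 lower, in F0EHC. For ASIC4, of the acid-sensing ion channel family, the F0EHC birds had 53.0%, 53.0%, 48.4% and 53.6% and the F0C birds 28.2%, 32.0%, 41.2%, 45.3% and 39.8% (chr7:22233147-22233274). The differences of these regions were 9.88, 8.79, -11.2 and 14.7 points for TGM2, HYOU1, HS6ST2 and ASIC4. They do not stand for the whole gene. Of the 3 mid-level regions of HS6ST2, 2 were higher. Over all listed regions, TGM2 had 1 higher and 2 lower, and HYOU1 had 2 higher and 1 lower. HS6ST2 had 3 higher and 1 lower, and ASIC4 had 7 higher and 1 lower.

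Read depth could be seen only at single cytosines that the authors listed as differentially methylated. Of 1286 such cytosines, 100 lay in 56 mid-level regions. These are 1.94% of the mid-level regions, against 5.26% of the other listed regions that hold any. Their median coverage was 33 reads, with at least 8 in every bird, and 54 were higher and 46 lower in F0EHC. The sign was that of the region in 97. Their median absolute difference was 28.1 points, against 10.3 points for their regions, and 93 exceeded their region. Both lists were made from the same birds and contrast, so this shared direction is no independent evidence.

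The listed cytosines were often not mid-level themselves. Their median level was 36.4%, with 39 between 40% and 60%, 22 below 20% and 3 above 60%. The median distance of a listed cytosine from the mean of its region was 12.8 points. Only where this distance was large did the mid-level mean include CpGs of clearly unequal level. The authors listed these cytosines for the group contrast, so they need not stand for the other CpGs of a region. At chr6:1549830-1549896 (uc_338) all 16 listed cytosines together had 69.9%, 66.9%, 78.3% and 69.6% methylated calls in the F0EHC birds and 29.0%, 1.11%, 1.59%, 24.4% and 65.8% in the F0C birds, with 8 to 53 reads at each cytosine. Neighbouring cytosines share reads, so these shares rest on fewer reads than their sum. The low, middle and high birds were those of the region mean. In the SLC12A5 intron 1 listed cytosine had 32.3%, 20%, 26.9% and 29.3% in the F0EHC birds and 68%, 50%, 80.6%, 64.5% and 65% in the F0C birds, from 20 to 42 reads per bird. This cytosine separated the groups, which the region mean did not. It had been listed for this contrast in the same birds, so its separation is no further evidence. In an intron of ENSGALG00000000645.6 (chr21:592740-593195), where 6 cytosines were listed, the region stood at 53.1%, 52.7%, 52.8% and 48.9% in the F0EHC birds and at 25.1%, 46.7%, 27.4%, 55.7% and 9.7% in the F0C birds. Near the homeobox gene Gbx-1 (chr2:188555-188870) it stood at 60.2%, 56.8%, 52.8% and 51.5% in the F0EHC birds and at 36.9%, 33.0%, 32.9%, 34.1% and 56.7% in the F0C birds. Near Gbx-1, 1 control lay among the conditioned males, and in the intron of ENSGALG00000000645.6 F0C replicate 4 lay above all of them; the other controls lay below the conditioned males in both.

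Mid-level regions lay more often on small chromosomes than the other listed regions did. Chromosomes 11 and above held 57.3% of them, against 43.8% of the other listed regions, and chromosomes 1 to 5 held 15.02% against 26.9%. The Z chromosome held 1.11% against 3.19%. Among the 29 chromosomes and contigs with at least 50 listed regions, the mid-level share of listed regions was lowest on Z (22.1%) and highest on chromosome 14 (57.6%). The regions that RRBS covered were not used here as a background, so these shares describe the list only. The share of mid-level regions higher in F0EHC was 58.3% on chromosomes 1 to 5, 57.7% on chromosomes 6 to 10, 54.4% on chromosomes 11 and above, 60.6% on contigs and 68.8% on Z (22 of 32). Among the chromosomes with at least 50 listed regions it ran from 45.5% on chromosome 19 to that of Z. The W chromosome held 1 mid-level region, lower in F0EHC by 6.92 points with a range of 60.9 points. A region on a W contig, counted under contigs, was higher by 18.9 points without overlap. All birds were males, and how their reads came to be placed on W was not tested.

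The mid-level regions had a median length of 83 bp, from 16 to 690 bp, against 66 bp for the other listed regions. Longer ones were slightly more uniform, with a median range over the birds of 17.5 points above 120 bp and 20.9 points up to 30 bp. The longest, chr33:1134144-1134833, had a mean level of 51.1% and a difference of -6.52 points. Of the 5 longest, 4 were higher in F0EHC, and the one at chr25:2702047-2702673 had no overlap between groups, with a difference of 6.36 points.

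Over all mid-level regions, the levels of the birds correlated weakly. Pearson's r across regions was 0.377 to 0.438 between F0EHC birds, 0.300 to 0.386 between F0C birds and 0.123 to 0.249 between birds of different groups. These values are across regions that had been listed for the group contrast, with the level held to 20 points by the rule, and are a description.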

How the data were processed

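Sperm DNA of 4 F0EHC and 5 F0C males was read by RRBS (Zymo-Seq kit, paired ends). Per the labels and the study's methods, the authors used Trim Galore, Bismark with Bowtie on galGal5, edgeR for single cytosines (at least 8 reads per library and FDR below 0.05) and metilene for regions. The region table was deposited by the authors as percent methylation per region and bird, without read depth, and 31 missing values were left out (12 mid-level regions had one). The cytosine table was deposited as counts of methylated and unmethylated reads, with the percent the authors computed from them. Columns with the authors' own differences and p-values were not used. Region starts were read as counting from 0, since 30 starts met a listed cytosine 1 base later and 5 as written, and are printed counting from 1.

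Members were the regions with a mean of 40% to 60% over the birds. The members, gene lists and tests were chosen with earlier results of these data known. Groups and replicate numbers came from the titles. limma 3.58.1 (R 4.3.3, trend over mean level) was fitted on the percentages of all 6428 regions, with Benjamini-Hochberg adjustment over all of them, after it had been tested on simulated data. Single regions were also compared by a two-sided exact permutation test over the 126 ways to draw 4 of 9 birds, with a smallest p of 0.00794. P-values on listed regions are not independent evidence, since metilene had listed them for this contrast.

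Regions were named by rule: the 10 higher and 10 lower with the smallest limma p, the 5 each with the largest difference, the extremes of range, the regions nearest the limits, the 5 longest, the 5 gene IDs with the most members, the 5 with the most cytosines and members with a symbol on the gene lists. Others named by symbol were chosen after their values were seen. Symbols and annotation classes came from the study's gene lists, by position or gene ID, and where both were known 32 of 33 were equal. A symbol found for 1 region was also given to other regions with the same gene ID. The comparison of 33 did not test that step. The RefSeq table used (GRCg7b) holds no Ensembl IDs, so it matched 0 of 3626 gene IDs. No sequence is printed, since no genome of the files' build was used here. The alternatives were other limits of level, gap, difference, length and coverage, another scale, no trend, array weights, a replicate block, each bird left out and, added after seeing the data, each bird centred on its median. Tables were handled in Python 3.11.15 with pandas 2.3.3 and SciPy 1.17.1.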

Additional observations from a re-analysis of the deposited data

Results flagged for a closer look

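For the mid-level regions whose values are printed, and for the mean over all mid-level regions, each group was searched for a bird far from the others, by its gap to the nearest bird as a share of the group's range (Dixon's 95% limit). Of 66 groups searched, 9 had such a bird. Most of these regions were chosen by their values and all rest on the same 9 birds. The count is therefore not set against a rate expected by chance. In F0EHC, the lowest bird stood apart at 48.9% in the intron of ENSGALG00000000645.6 (replicate 4), at 36.5% near HS6ST2 (replicate 3) and at 48.4% at ASIC4 (replicate 3). In F0C, the lowest bird stood apart at 24.99% in the promoter region of ENSGALG00000045102.1 (replicate 1), at 49.5% in the SLC12A5 intron (replicate 2), at 34.8% at HYOU1 (replicate 2), at 51.1% at chr28:3406034-3406071 (replicate 3) and at 48.1% at chr6:22716711-22716750 (replicate 4). The highest F0C bird stood apart at 56.7% near Gbx-1 (replicate 5).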

How the results depend on the processing

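Over 1554 refits of 111 named regions under the alternatives, 1541 kept their direction and their side of the adjusted threshold. The difference of 10 regions reversed in 12 refits, each with a bird left out. With each bird left out in turn, the difference ran from -14.03 to 7.77 points at chr1:50943387-50943412, -19.2 to 6.64 at chr1:50943478-50943504, -4.37 to 0.0339 at chr23:2023582-2023614 and -14.2 to 3.60 at chr2:202320-202443, each reversed without F0EHC replicate 4. It ran from -0.125 to 4.27 at chr28:1417867-1417945 and -7.13 to 0.428 at chr2:229508-229577, both reversed without F0EHC replicate 3, from -5.52 to 12.1 at chr2:62130574-62130619 (-2.77 without F0EHC replicate 3, -1.79 without F0EHC replicate 2), and from -2.41 to 15.2 at chr2:62130620-62130658, both lowest without F0C replicate 4. It ran from -6.38 to 1.72 at chr9:15004005-15004055 (reversed without F0C replicate 3) and -4.21 to 7.13 at chr9:15006345-15006407 (reversed without F0EHC replicate 1). At chr6:1549830-1549896 (uc_338) it ran from 35.8 to 53.3. The cause was not tested.

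Over all birds left out in turn, the mean level difference over the mid-level regions ran from -0.0662 (without F0EHC replicate 2) to 1.73 points, regions with no overlap from 198 to 304 (fewer birds overlap less by construction), those with a difference of at least 10 points from 251 to 313, unadjusted limma calls from 356 to 452 (37.5% to 78.1% higher, 99 to 242 lower) and adjusted calls from 0 to 1. With a bird left out, the unadjusted calls made up 12.3% to 15.6% of mid-level and 15.6% to 19.5% of all listed regions. The counts with no overlap or with at least 10 points are not given over all listed regions for these refits. A level of 45% to 55% left 1855 regions, 1080 of them higher, with 275 unadjusted limma calls (103 lower). Centring shifted the group difference by 0.621 points and gave 290 lower calls, with 46.0% higher. A gap of at least 2 points left 37 regions with no overlap, a threshold of 5 points gave 1625 regions, and at least 20 reads in every bird left 47 cytosines.

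With the replicate number as a block, unadjusted limma calls were 243 (60.9% higher, 95 lower; 8.41% of mid-level and 11.3% of all listed regions). Birds with the same number did not deviate together (correlations of -0.03, -0.04, 0.05 and -0.02, with own number highest for 1 of 4), so the numbers do not pair the birds. The log2 ratio scale gave 390 unadjusted calls (13.5% of mid-level regions, 21.4% of all listed), array weights 424 (14.7% and 19.3%) and no trend 546 (18.9% and 15.4%). Region depth is unknown, so the counting error of a region value cannot be given.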
